A study of Arabidopsis thaliana with 20 samples.

Results

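The nuclear photosystem and light-harvesting genes of Arabidopsis thaliana were followed in wild-type (Col-0) seedlings and in the double mutant rz-1b rz-1c. The set was chosen by gene identifier, without regard to measured values, and holds 36 of the 33602 genes in the chromatin-bound tables. All 36 were also present in the mRNA table of 33554 genes. It comprises 4 LHCA, 14 LHCB, 10 PSA and 7 PSB genes and PETE2. Wild type and mutant seedlings were 10 days old, raised at 22 °C with 16 h of light and 8 h of dark per day, and no further treatment is named for either. The mutant carries lesions in RZ-1B and RZ-1C, which encode glycine-rich RNA-binding proteins with roles in pre-mRNA splicing. Its alleles are not named in the labels. Chromatin-bound RNA is what remains attached to washed chromatin, and it is rich in transcripts still being made. Here it was also depleted of rRNA and of polyadenylated RNA before sequencing. It was measured as FPKM (fragments scaled to gene length and to the fragment total of the column) in 2 replicate columns per genotype. In mRNA the authors' deposited table holds 1 FPKM-like value per genotype, made from 3 libraries each, and a q-value. The labels number these libraries as separate replicates, but some share a title number that marks 1 replicate among the chromatin-bound libraries. The spread behind the q-values may thus be technical in part.

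Photosystem II uses light to take electrons from water, and photosystem I uses light to pass them on to ferredoxin. LHCB proteins are the antenna of photosystem II, where LHCB1, LHCB2 and LHCB3 form the major trimeric antenna and LHCB4, LHCB5 and LHCB6 the minor antenna next to the core. LHCA proteins are the antenna of photosystem I. PSA genes encode nuclear subunits of photosystem I, PSB genes those of photosystem II, and PETE2 encodes plastocyanin, the copper protein that carries electrons to photosystem I. The core subunits of both photosystems are encoded in the plastid, but all 133 plastid genes have the value 0 in these tables and are not read here. In green seedlings the nuclear genes are among the most strongly expressed of all genes, and they are known to respond to light, the clock and signals from the plastid.

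The targeted genes went with the genotype labels in mRNA, and in chromatin-bound RNA for RZ-1C but not for RZ-1B. RZ-1C was at 16.7 and 13.1 FPKM in wild-type and 4.59 and 4.27 in mutant chromatin-bound replicates. RZ-1B was at 10.5 and 9.42 against 132 and 143, 13.8 times higher, which goes against a loss of its transcript, and which part of the gene is read cannot be told. "Mutant" therefore means the libraries labelled rz-1b rz-1c throughout. The authors' deposited table gives their mRNA as 31.7 against 2.77 and 15.2 against 2.299 FPKM. Relative depth, read from the steps of low FPKM values, with wild-type replicate 1 set to 1, was 0.661 in the other wild-type replicate and 1.85 and 1.97 in the mutant replicates. Of summed FPKM, 53.6% and 60.5% was rRNA in the wild-type columns, against 31.6% and 34.1% in the mutant ones. The median over all 19694 genes tested in chromatin-bound RNA was a log2 change of 0.27. Whether replicates came from separate cultures is not stated, so a p-value here measures the spread between columns, which may be technical. Green tissue markers were abundant in each column, with 6 Rubisco, Rubisco activase and carbonic anhydrase genes summing to between 1651 and 2304 FPKM in chromatin-bound RNA.

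The levels of the 36 genes differed in standing between the kinds of RNA. In wild-type mRNA 8 of the 10 genes with the highest values in the authors' deposited table were members, and 30 of the top 50. Within the chromatin-bound columns 0 members were in the top 10, and between 1 and 3 were in the top 50. Summed over the 36 genes, the chromatin-bound level was 6021 and 4948 FPKM in wild-type seedlings and 5925 and 5306 in mutants. This was 0.668% and 0.515% of the column total in wild-type seedlings and 0.813% and 0.696% in mutants. With rRNA left out of the total, the order of the genotypes turned, to 1.44% and 1.303% in the wild type against 1.19% and 1.06% in the mutant. In mRNA the same sum from the authors' deposited table was 18.5% of the wild-type total and 13.3% of the mutant total.

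LHCB1.3 (AT1G29930, also CAB1) was the highest member in every column. In chromatin-bound RNA it stood at 1420 and 960 FPKM in wild-type seedlings and 1192 and 1320 in mutants, and the groups overlapped. LHCB4.3 (AT2G40100), a minor isoform of the antenna protein CP29, was the lowest, at 6.11 and 5.39 against 2.58 and 1.66. The other 34 members lay between 12.01 and 312 FPKM in each chromatin-bound column. Replicate 1 was above replicate 2 for 28 of 36 members of the wild type and for 31 of 36 in the mutant. The 8 wild-type exceptions were LHCB2.1, LHCB2.2, LHCB3, PSAD1, PSAD2, PSAF, PSBP1 and PSBS.

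**Figure D1:**
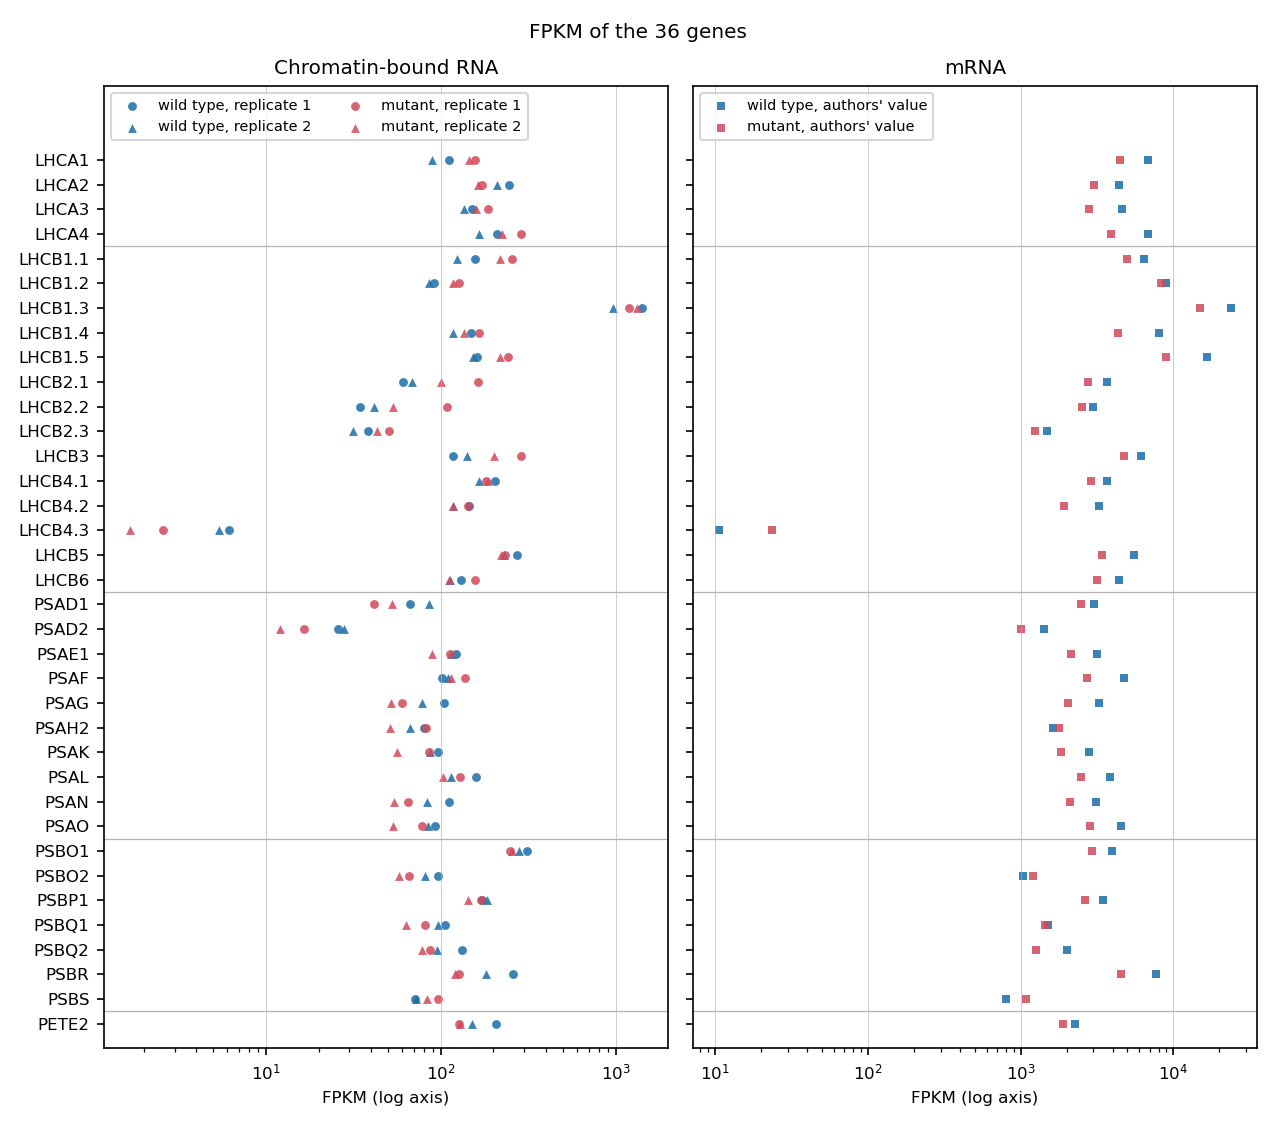
FPKM of the 36 genes on log axes, with the 4 chromatin-bound columns on the left (circles for replicate 1, triangles for replicate 2) and the authors' mRNA value of each genotype on the right (squares). In mRNA 32 of 36 mutant values lie below the wild-type value. In chromatin-bound RNA 12 genes have both mutant values above and 16 have both below the wild type, beside 49.5% and 15.7% of all genes tested.

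The first comparison asked how mature mRNA of these genes differs between the genotypes. By the authors' q under 0.05, 21 of the 36 genes fell, 2 rose and 13 did not pass. The background in the authors' deposited table was 17.9% of genes called lower and 17.1% called higher, among the 20361 genes that reach 1 FPKM in either genotype. Of the 1678 genes that reach 100 FPKM, a level that 35 of the 36 members reach, 24.9% were called lower and 24.0% higher, 48.9% in all. Members called lower made up 58.3% of the set, above both shares. The median log2 ratio of the members in the authors' deposited table was -0.52, beside -0.01 over 18794 genes with at least 1 FPKM in both genotypes and 0.05 over the 1678 highly expressed genes. In such bulk samples fewer cells of a type and less RNA per cell cannot be told apart.

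All 4 genes of the photosystem I antenna fell in mRNA. LHCA4 (AT3G47470), whose protein pairs with LHCA1 and carries the red-most chlorophylls, went from 6807 to 3908 FPKM in the authors' deposited table (q = 0.000329, the smallest q there). LHCA1 (AT3G54890) is given there, in the authors' deposited table, as 6864 against 4457 (q = 0.00637). LHCA2 (AT3G61470) and LHCA3 (AT1G61520), the other pair, were at 4394 against 3001 (q = 0.00655) and 4593 against 2803 (q = 0.000620) in the authors' deposited table.

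Among the major photosystem II antenna genes, 3 of the 5 LHCB1 genes fell, while 0 of the 3 LHCB2 genes and LHCB3 passed. LHCB1.3 dropped from 23997 to 14931 FPKM in the authors' deposited table (q = 0.000894). LHCB1.4 (AT2G34430) and LHCB1.5 (AT2G34420), which are neighbours, were at 8092 against 4351 and 16513 against 8950 in the authors' deposited table (q = 0.000329 for each). LHCB1.4 had the lowest log2 ratio of all members, -0.90. LHCB1.1 (AT1G29920, also CAB2) and LHCB1.2 (AT1G29910, also CAB3), which lie next to LHCB1.3 with no coding gene between, did not pass in the authors' deposited table, at 6430 against 4998 (q = 0.129) and 9003 against 8340 (q = 0.709). The LHCB2 genes and LHCB3 had log2 ratios between -0.41 and -0.24 in the authors' deposited table, with q between 0.0539 and 0.283. The 5 LHCB1 genes are closely related copies, as are LHCB2.1 and LHCB2.2, and how alike each pair is was not measured here. How the authors' counting split shared reads between them is thus uncertain. Without the LHCB1 and LHCB2 copies, a split chosen after seeing the data, 18 of the other 28 members were called lower and 2 higher in the authors' deposited table.

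In the minor antenna LHCB4.2, LHCB5 and LHCB6 fell and LHCB4.3 rose. LHCB5 (AT4G10340), the CP26 protein gene, was at 5549 against 3429 FPKM in the authors' deposited table (q = 0.00141). LHCB4.2 (AT3G08940), a gene for CP29, was at 3268 against 1922 (q = 0.000329), and LHCB6 (AT1G15820), for CP24, at 4396 against 3169 (q = 0.0244), per the authors' deposited table. LHCB4.1 (AT5G01530) did not pass, with 3694 against 2888 in the authors' deposited table (q = 0.0975). LHCB4.3 went the other way, from 10.5 to 23.4 FPKM in the authors' deposited table (q = 0.000329), a log2 ratio of 1.15.

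Of 10 photosystem I subunit genes 8 fell in mRNA, with log2 ratios from -0.79 to -0.49 in the authors' deposited table. PSAF (AT1G31330), for the subunit that docks plastocyanin, had the lowest ratio, at 4725 against 2736 FPKM in the authors' deposited table (q = 0.000329). PSAG (AT1G55670), for a subunit at the antenna side, was at 3247 against 2028, and PSAO (AT1G08380), for a subunit used when photosystem I takes up LHCII, at 4525 against 2832, both with q = 0.000329 in the authors' deposited table. PSAE1, PSAK, PSAL and PSAN had q between 0.00115 and 0.00212, and PSAD2 had q = 0.00800, in the authors' deposited table. PSAD1 (AT4G02770), the gene for the ferredoxin-docking subunit with the higher FPKM, did not pass in the authors' deposited table, at 3013 against 2494 (q = 0.186). PSAH2 (AT1G52230) did not pass either, at 1633 against 1780 in the authors' deposited table (q = 0.574).

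The photosystem II subunit genes were split, with 3 of 7 falling, 1 rising and 3 not passing. PSBR (AT1G79040), for a small subunit beside the oxygen-evolving complex, fell from 7719 to 4564 FPKM in the authors' deposited table (q = 0.000329). PSBQ2 (AT4G05180) and PSBO1 (AT5G66570), for extrinsic proteins of that complex, were at 2013 against 1264 (q = 0.000329) and 3972 against 2913 (q = 0.0334) in the authors' deposited table. Their paralogues PSBQ1 (AT4G21280), at 1506 against 1436 (q = 0.783), and PSBO2 (AT3G50820), at 1033 against 1199 (q = 0.298), did not pass in the authors' deposited table. PSBP1 (AT1G06680) was at 3475 against 2633 there (q = 0.0547 in the authors' deposited table). PSBS (AT1G44575, also NPQ4), which is needed to dissipate excess light as heat and is no part of the water-splitting machinery, rose from 801 to 1077 in the authors' deposited table (q = 0.0190). PETE2 (AT1G20340, also DRT112) did not pass, at 2269 against 1906 in the authors' deposited table (q = 0.232).

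**Figure D2:**
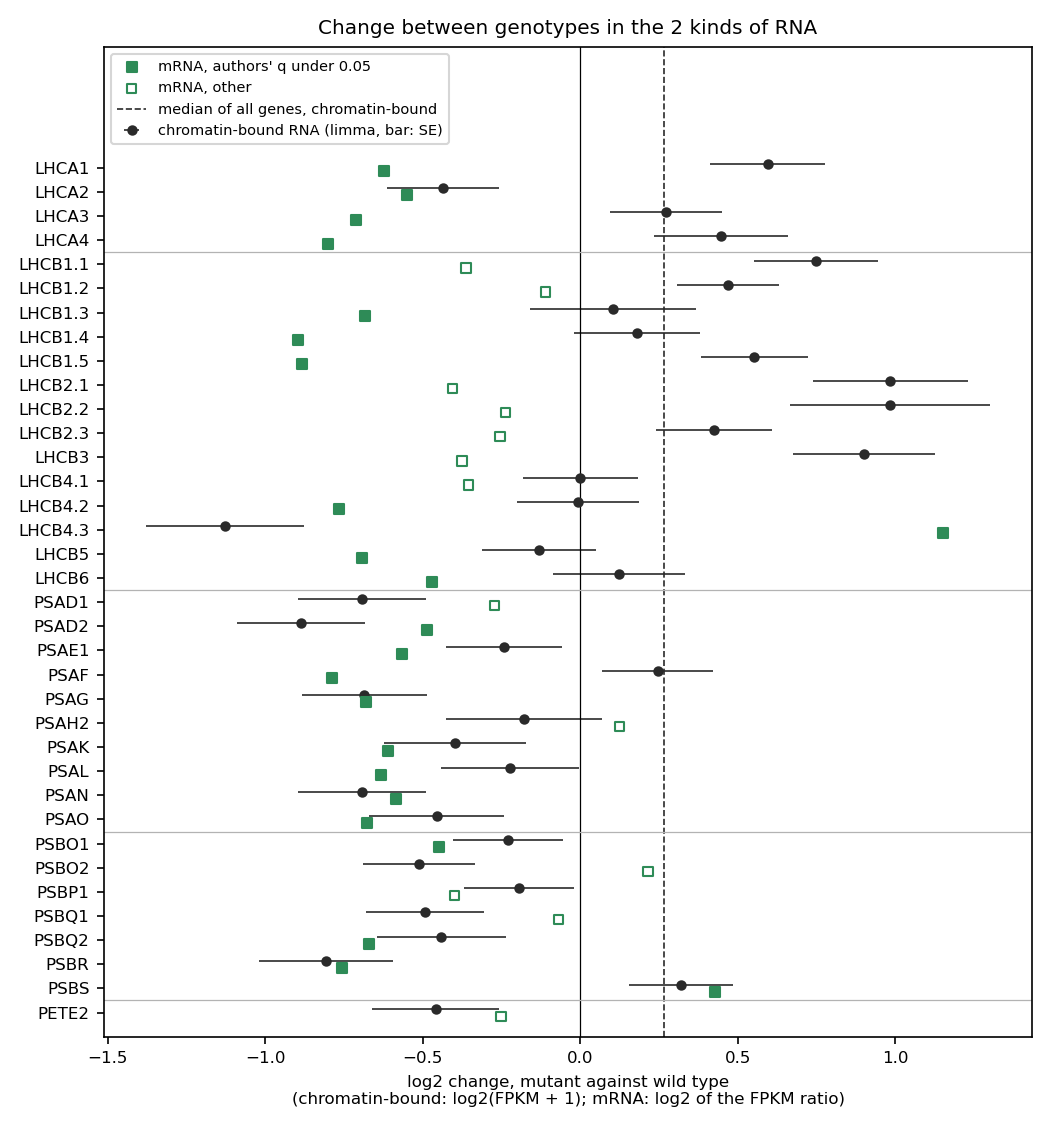
log2 change from wild type to mutant for the 36 genes, with limma estimates and standard errors in chromatin-bound RNA (black circles) and log2 ratios of the authors' values in mRNA (green squares, filled where the authors' q is under 0.05). The dashed line is the chromatin-bound median of all genes, 0.27. The LHCA genes other than LHCA2 and the LHCB1, LHCB2 and LHCB3 genes lie right of 0 in chromatin-bound RNA and left of it in mRNA, and LHCB4.3 lies at -1.13 in chromatin-bound RNA and 1.15 in mRNA.

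The second comparison took the same genes in chromatin-bound RNA. limma on log2(FPKM + 1), adjusted over all 19694 genes tested, called 3 members higher, 3 lower and 30 neither, and all 36 passed the filter on low values. Called members made up 16.7% of the set and 17.4% of all genes were called (13.2% higher and 4.24% lower), so the number of calls is near the background and says nothing particular about the set. After median-of-ratios rescaling, which brings the median log2 change of all genes to 0.018, 0 members were called higher and 12 lower, with 6.75% of all genes called higher and 7.84% lower. After quantile normalization the members' counts were 0 and 13, with 7.34% and 7.82% of all genes. With either mutant replicate left out 0 members were called, beside 1.78% and 1.16% of all genes. In these fits 11 and 10 members had an unadjusted p under 0.05, beside 19.6% and 20.8% of all genes. The log2 changes below are those of the FPKM as deposited, to be read against the median of 0.27 over all genes.

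The major antenna genes held the 3 higher calls. LHCB2.1 (AT2G05100) was at 60.5 and 68.4 FPKM in wild-type seedlings and 163 and 101 in mutants, which gave a limma log2 change of 0.98 with an SE of 0.25 (n = 2 columns of each genotype, adjusted p = 0.0365). Both mutant replicates lay above both wild-type replicates, and replicate 1 was well above replicate 2. LHCB3 (AT5G54270) was at 117 and 142 against 288 and 201.4 (log2 change 0.90, SE 0.22, limma adjusted p = 0.0367). LHCB1.1 was at 158 and 124 against 255 and 217 (log2 change 0.75, SE 0.20, limma adjusted p = 0.0422). These 3 calls were lost after median-of-ratios rescaling, where limma adjusted p was between 0.0948 and 0.118. Over all alternatives their limma adjusted p ran from 0.0166 to 0.259.

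The other major antenna genes did not pass. LHCB2.2 (AT2G05070), the neighbour of LHCB2.1, was at 34.5 and 41.5 FPKM in wild-type seedlings and 108 and 53.1 in mutants, and LHCB2.3 (AT3G27690) at 38.2 and 31.4 against 50.7 and 43.2. The groups did not overlap for either gene. LHCB1.2 was at 91.0 and 85.8 against 127 and 118, and LHCB1.5 at 161 and 154 against 243 and 220, again without overlap. LHCB1.4, at 148 and 118 against 166 and 135, and LHCB1.3 overlapped. Both mutant replicates thus lay above both wild-type replicates for 7 of the 9 major antenna genes, beside 49.5% of all genes tested. All 9 genes had a log2 change above 0 as deposited, with a median of 0.55 beside 0.27 over all genes. After median-of-ratios rescaling 7 of 9 stayed above 0, with LHCB1.3 and LHCB1.4 below, and after quantile normalization 8 of 9, with LHCB1.3 below and called lower.

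LHCA1, LHCA3 and LHCA4 had both mutant replicates above both wild-type replicates, and LHCA2 had both below. Of all genes tested, 49.5% lay above in this way and 15.7% below. LHCA1 was at 111 and 89.4 FPKM in wild-type seedlings and 158 and 145 in mutants (log2 change 0.59, SE 0.18, limma adjusted p = 0.0645). LHCA4 was at 209 and 165 against 288 and 222, and LHCA3 at 151 and 135 against 187 and 160. LHCA2 was at 247 and 209 against 173 and 162 (log2 change -0.44, SE 0.18, limma adjusted p = 0.129). None of the 4 was called as deposited, and 2 had an unadjusted p under 0.05. After either rescaling LHCA2 was called lower, and LHCA3, whose log2 change of 0.27 is close to the median of all genes, had one of -0.008 after median-of-ratios rescaling.

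In the minor antenna 4 of 5 genes overlapped between genotypes, whereas 65.2% of all genes tested did not. LHCB5 was at 271 and 230 FPKM against 234 and 221, LHCB4.1 at 205 and 165 against 182 and 186, LHCB4.2 at 145 and 118 against 143 and 117, and LHCB6 at 130 and 113 against 156 and 112. LHCB4.3 was the 1 call, with the values given above and a limma log2 change of -1.13 (SE 0.25, adjusted p = 0.0260). It was called lower after both rescalings too. With mutant replicate 1 or 2 left out its limma adjusted p was 0.111 and 0.21, within a range of 0.00916 to 0.21 over the alternatives.

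The photosystem I genes leaned lower. PSAD2 (AT1G03130), the gene for the ferredoxin-docking subunit with the lower FPKM, was at 25.8 and 28.04 FPKM in wild-type seedlings and 16.5 and 12.01 in mutants (log2 change -0.89, SE 0.20, limma adjusted p = 0.0289). PSAD1 was at 66.9 and 85.8 against 41.3 and 52.3 (log2 change -0.69, SE 0.20, limma adjusted p = 0.0565). PSAG was at 104 and 78.3 against 60.0 and 51.7, and PSAN (AT5G64040), for a lumenal subunit, at 111 and 83.9 against 65.3 and 54.0, with limma adjusted p = 0.0542 and 0.0565. For 7 of the 10 genes both mutant replicates lay below both wild-type replicates, beside 15.7% of all genes tested. PSAF had both mutant replicates above, at 102 and 109 against 138 and 114, with a log2 change of -0.02 relative to the median of all genes. After median-of-ratios rescaling 5 of the 10 genes were called lower, and after quantile normalization 4. The PSAD2 call was lost without wild-type replicate 2 (limma adjusted p = 0.0701) and with either mutant replicate left out (0.0869 and 0.209), in a range of 0.0131 to 0.209.

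PSBR was the photosystem II gene called lower, at 259 and 182 FPKM in wild-type seedlings and 127 and 121 in mutants (log2 change -0.81, SE 0.21, limma adjusted p = 0.0422). Its limma adjusted p ran from 0.0109 to 0.224 over the alternatives, and its call was lost without wild-type replicate 1 (0.0784), with either mutant replicate left out (0.205 and 0.224) and at a pseudocount of 0.1 (0.0522). PSBO1 was at 312 and 282 against 249 and 257, PSBO2 at 96.7 and 80.9 against 66.0 and 57.9, and PSBP1 at 173 and 185 against 169 and 144. PSBQ1 was at 106 and 96.2 against 81.0 and 63.3, and PSBQ2 at 132 and 94.9 against 86.4 and 78.4. In these 5 genes, none of them called as deposited, both mutant replicates lay below both wild-type replicates, beside 15.7% of all genes tested. After median-of-ratios rescaling PSBO2, PSBQ1, PSBQ2 and PSBR were called lower, and after quantile normalization PSBO1 as well. PSBS was at 71.2 and 72.0 against 96.1 and 83.6 (limma adjusted p = 0.209), a log2 change of 0.05 relative to the median of all genes. PETE2 was at 207 and 150 against 127 and 129 (limma adjusted p = 0.150).

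Over the whole set, both mutant replicates lay above the wild type for 12 members (33.3%, beside 49.5% of all genes tested) and below it for 16 (44.4%, beside 15.7%). In either direction 28 members had no overlap, beside 65.2% of all genes. The median log2 change was -0.43 for the PSA genes and -0.44 for the PSB genes, beside 0.27 over all genes. The PSA median was -0.70 after median-of-ratios rescaling and -0.62 after quantile normalization, and the PSB median -0.72 and -0.61. These counts depend on the scaling of the columns, and the mutant columns held less rRNA. The part of rRNA in these differences was not tested.

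Ratios between classes within a column do not change with a constant factor per column, such as the median-of-ratios one. Quantile normalization is no such factor, and the ratios are given for the FPKM as deposited. The summed FPKM of LHCB1, LHCB2 and LHCB3 genes was 2.32 and 2.02 times that of the PSA genes in wild-type chromatin-bound replicates and 3.22 and 3.79 times in mutant replicates. Without LHCB1.3, the member with the highest values, the ratio was 0.841 and 0.897 in wild-type seedlings and 1.74 and 1.71 in mutants. With medians in place of sums it was 1.18 and 1.39 against 2.08 and 2.52. The groups did not overlap by any of these measures, which reuse the same genes and columns. Gene by gene the major antenna genes leaned higher and the PSA genes lower. These ratios thus restate the values given above and are no separate support for them. Set against the PSB genes, the sums gave 1.94 and 1.74 in wild-type seedlings and 2.96 and 3.00 in mutants. In mRNA the ratio to the PSA genes was 2.48 in wild-type seedlings and 2.47 in mutants, and that to the PSB genes 3.82 and 3.5, from the authors' deposited table. No test was made on these ratios, and 2 against 2 samples cannot go below an exact two-sided p of 0.333.

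**Figure D3:**
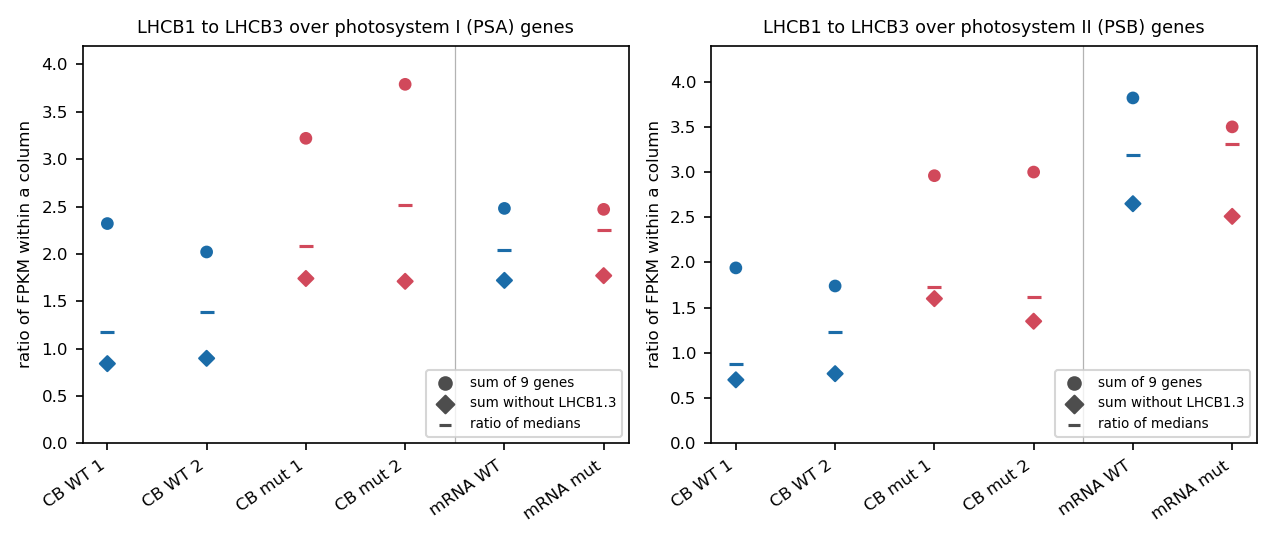
Ratio of the FPKM of the LHCB1, LHCB2 and LHCB3 genes to that of the PSA genes (left) and the PSB genes (right) within each column, as sums (circles), as sums without LHCB1.3 (diamonds) and as medians (bars). CB stands for chromatin-bound RNA, WT (blue) for the wild type, mut (red) for the mutant and 1 and 2 for the replicates. The mutant chromatin-bound ratios to PSA genes, 3.22 and 3.79 as sums, lie above the wild-type 2.32 and 2.02, while the mRNA ratios are 2.48 and 2.47.

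Set side by side, the 2 kinds of RNA gave different changes for many antenna genes. For 17 of the 18 LHCA and LHCB genes the mRNA log2 ratio from the authors' deposited table was below the chromatin-bound log2 change. The median difference was -1.10 for the LHCA genes and -1.11 for the LHCB1, LHCB2 and LHCB3 genes and -0.56 for the LHCB4, LHCB5 and LHCB6 genes, against -0.25 over 17770 genes read in both, of which 67.8% were below 0. The exception was LHCB4.3. Among the 17 PSA and PSB genes, 8 had the mRNA ratio of the authors' deposited table below the chromatin-bound change, with a median difference of 0.0064. Over the 36 members Spearman's rho between the changes in the 2 kinds of RNA was -0.08, a description over genes that share libraries. The difference between the kinds of RNA was not tested, since mRNA has 1 deposited value per genotype.

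PSAD2 and PSBR were called lower in both kinds of RNA, and LHCB4.3 was called lower in chromatin-bound RNA and higher in mRNA. These 3 of 36 members compare with 8.3% of 18551 genes called in both kinds of RNA, with 1.3% called lower in both and 2.02% called in opposite directions. After median-of-ratios rescaling 8 members were called in both, 7 of them lower in both and LHCB4.3 opposite. Over all genes 7.49% were then called in both, 2.5% lower in both and 1.9% in opposite directions. PSBS was called higher in mRNA alone, and LHCB1.1, LHCB2.1 and LHCB3 higher in chromatin-bound RNA alone, which does not show that the kinds of RNA differ for them.

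The paralogues grouped here encode forms of the same protein, and their shares within a column are free of the column's total. LHCB1.3 made up 71.8% and 66.6% of LHCB1 FPKM in wild-type chromatin-bound RNA and 60.1% and 65.7% in the mutant. In mRNA its share in the authors' deposited table was 37.5% and 35.9%. LHCB1.5 held 8.15% and 10.7% of the chromatin-bound sum in wild-type seedlings and 12.3% and 10.9% in mutants, and 25.8% and 21.5% in mRNA by the authors' deposited table. LHCB4.3 made up 1.72% and 1.87% of LHCB4 in wild-type chromatin-bound RNA and 0.786% and 0.545% in the mutant, whereas the authors' deposited table gives 0.151% and 0.484% in mRNA. LHCB2.3 held 28.7% and 22.2% of LHCB2 in wild-type chromatin-bound RNA and 15.8% and 21.9% in the mutant. Its share in mRNA was 18.3% and 19.1% in the authors' deposited table. LHCB2.1 held 45.4% and 48.4% against 50.7% and 51.1% in chromatin-bound RNA, and 45.2% and 42.4% in mRNA by the authors' deposited table. The chromatin-bound groups did not overlap for LHCB1.3, LHCB1.5, LHCB4.3, LHCB2.3 and LHCB2.1, nor for LHCB1.1. The LHCB1 copies are closely related, as are LHCB2.1 and LHCB2.2, so the split of shared reads between them is uncertain in both kinds of RNA. How far it shapes their shares was not tested.

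In photosystem II, PSBO2 took 23.7% and 22.3% of PSBO FPKM in wild-type chromatin-bound RNA and 20.9% and 18.4% in the mutant, without overlap. In mRNA its share moved the other way, from 20.7% to 29.2% in the authors' deposited table. PSBQ1 held 44.6% and 50.4% of PSBQ in wild-type seedlings and 48.4% and 44.7% in mutants in chromatin-bound RNA, which overlapped, and 42.8% against 53.2% in mRNA by the authors' deposited table. LHCB4.1 held 57.5% and 57.3% of LHCB4 against 55.5% and 60.9%, also overlapping, and 53.0% against 59.8% in mRNA by the authors' deposited table. PSAD2 held 27.8% and 24.6% of PSAD against 28.5% and 18.7%, overlapping, with 32.0% against 28.9% in mRNA by the authors' deposited table. These shares carry no test, and the mRNA shares have no replicate check.

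**Figure D4:**
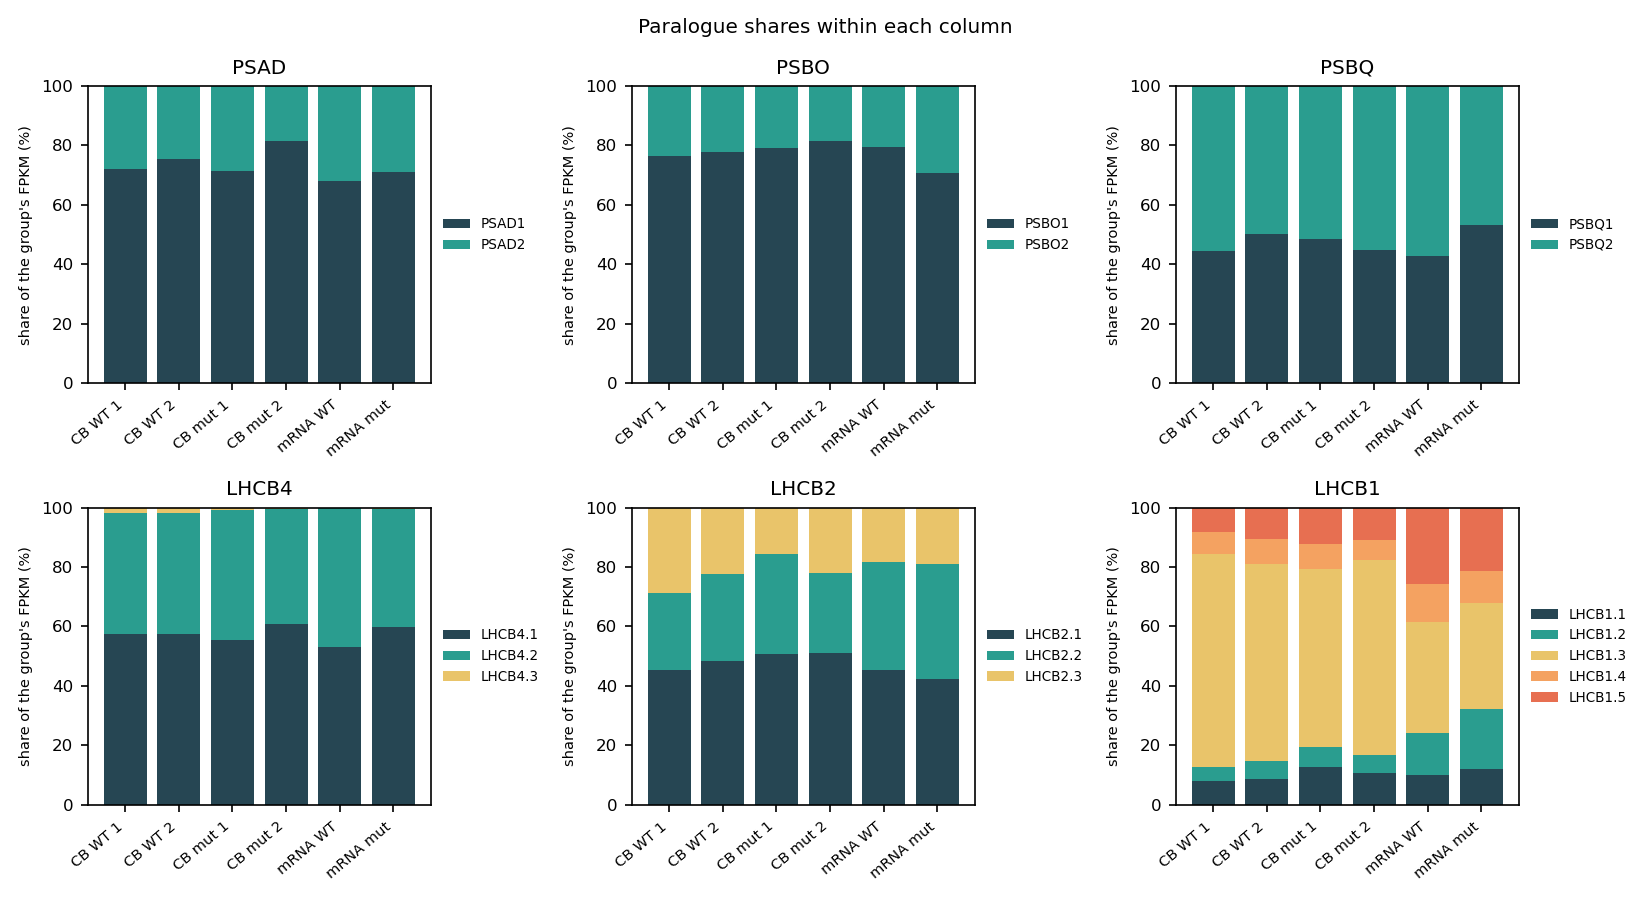
Share of FPKM of each gene within its group of paralogues in each column (stacked bars, percent of the group's sum). CB stands for chromatin-bound RNA, WT for the wild type, mut for the mutant and 1 and 2 for the replicates. LHCB1.3 holds between 60.1% and 71.8% of LHCB1 in chromatin-bound columns and 35.9% to 37.5% in mRNA, and PSBO2 grows from 20.7% to 29.2% in mRNA. The split of shared reads between the LHCB1 copies is uncertain in both kinds of RNA.

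The order of the 36 genes was similar between replicates and less so between kinds of RNA. Spearman's rho over the 36 genes was 0.955 between wild-type and 0.954 between mutant chromatin-bound replicates, 0.813 between genotypes in chromatin-bound RNA and 0.964 between genotypes in mRNA. Between chromatin-bound RNA and mRNA it was 0.613 in wild-type seedlings and 0.780 in mutants. LHCB1.2 ranked 28 of 36 in wild-type chromatin-bound RNA and 3 in mRNA, with the split of reads between LHCB1 copies uncertain. PSAO ranked 27 and 13. PETE2 ranked 9 and 28, PSBO1 2 and 16, and PSBP1 8 and 20. In the mutant these genes kept their side, at ranks 20 and 3 for LHCB1.2, 29 and 15 for PSAO, 17 and 27 for PETE2, 3 and 13 for PSBO1 and 11 and 19 for PSBP1. PSBR ranked 5 in both kinds of wild-type RNA, whereas its mutant ranks were 19 in chromatin-bound RNA and 6 in mRNA.

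**Figure D5:**
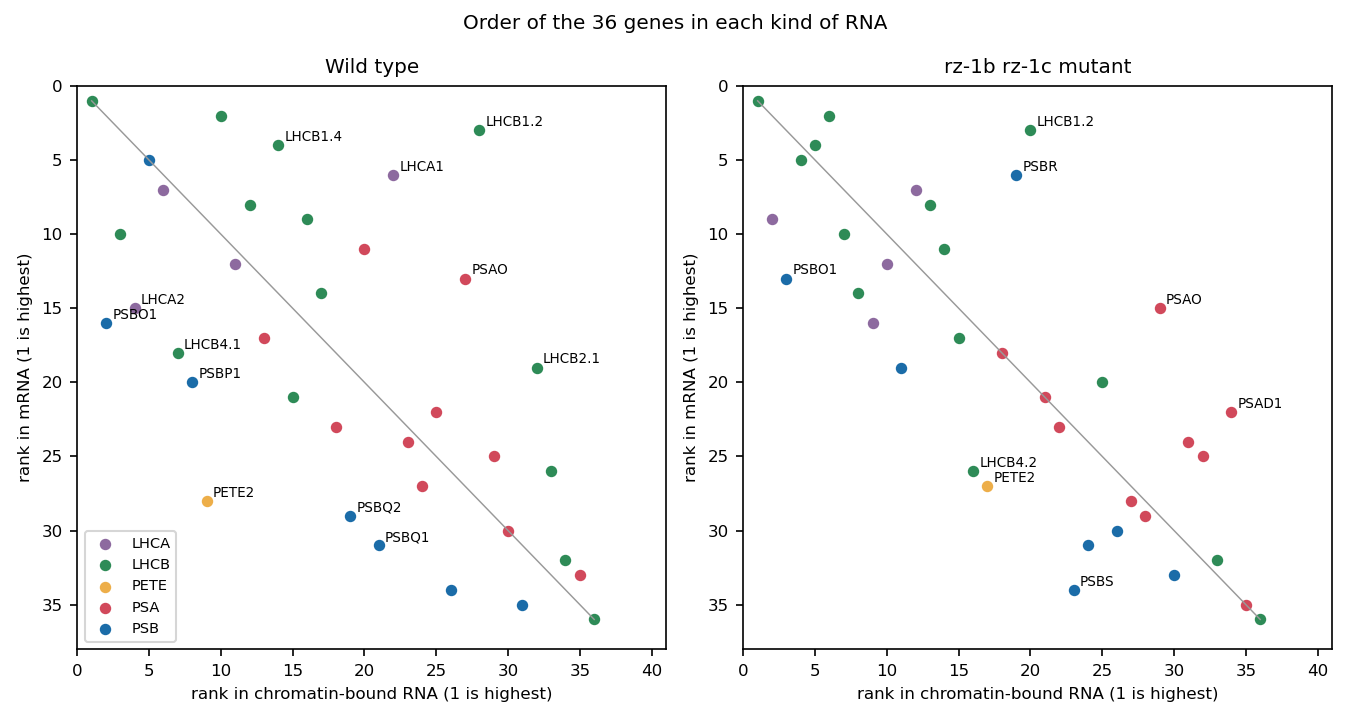
Rank of each of the 36 genes in chromatin-bound RNA (x axis, mean of 2 replicates) and in mRNA (y axis, authors' value), where 1 is the highest, in the wild type and the mutant. Colours mark the gene classes, the grey line equal ranks, and genes at least 10 places apart are named. LHCB1.2 and PSAO rank higher in mRNA and PETE2 and PSBO1 higher in chromatin-bound RNA in both genotypes.

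In the reference annotation 14 of the 36 genes overlap another annotated gene, among them LHCB3, PSAD2 and PSBR. Whether the counting used strand is not stated in the sources used here, so reads from overlapping neighbours cannot be told apart with certainty. The other 22 genes, with LHCB1.1, LHCB2.1 and LHCB4.3 among them, have no such overlap. LHCB1.1 and LHCB2.1 are among the closely related copies, so the split of shared reads is uncertain for their chromatin-bound values too.

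Other genes of the same machinery moved in part with the set. Of 28 other photosystem and electron transport genes, 1 was called higher and 1 lower in chromatin-bound RNA, beside 13.2% and 4.24% of all genes. The other 26 did not pass. The fall was PSBTN (AT3G21055), for a small photosystem II subunit, at 174 and 122 FPKM against 84.3 and 85.2 (limma adjusted p = 0.0454), and the rise STN8 (AT5G01920), for a kinase of photosystem II proteins, at 23.4 and 18.8 against 32.8 and 34.3 (limma adjusted p = 0.0487). After median-of-ratios rescaling 0 were higher and 6 lower, beside 6.75% and 7.84% of all genes. Of the 27 read in mRNA, 9 fell, 2 rose and 16 did not pass in the authors' deposited table. Of all genes with at least 1 FPKM there, 17.9% were called lower and 17.1% higher. LHCB7 (AT1G76570), a rarely expressed antenna relative, was at 13.7 against 6.66 FPKM, and TAP38 (AT4G27800), the phosphatase that reverses antenna phosphorylation, at 149 against 86.3, in the authors' deposited table (q = 0.000329 for each). PSB28 (AT4G28660), a photosystem II assembly factor, and the ferredoxin gene FD1 (AT1G10960) rose there, at 93.5 against 173 and 346 against 617 in the authors' deposited table (q = 0.000329 for each).

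Of 14 chlorophyll synthesis genes, 6 rose in mRNA, 0 fell and 8 did not pass in the authors' deposited table. Of all genes with at least 1 FPKM there, 17.1% were called higher and 17.9% lower. PORA (AT5G54190), for an enzyme that makes chlorophyllide in the light, and DVR (AT5G18660), for a reductase of the same pathway, were at 6.62 against 18.1 and 55.7 against 98.6 FPKM in the authors' deposited table (q = 0.000329 for each). CHLI1 (AT4G18480) and CHLI2 (AT5G45930), for the subunit of the enzyme that inserts magnesium, were at 207 against 388 and 41.2 against 78.6 in the authors' deposited table (q = 0.000329 for each). In chromatin-bound RNA PORA was the 1 call of the 14, at 0.555 and 0.336 FPKM against 1.96 and 2.303 (limma adjusted p = 0.0402). Of all genes 17.4% were called. The PORA call was lost after median-of-ratios rescaling, where 0 of the 14 were called higher and 2 lower, beside 6.75% and 7.84% of all genes.

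Of the 6 green tissue markers 2 rose in mRNA, 0 fell and 4 did not pass in the authors' deposited table. Of the genes that reach 100 FPKM there, 24.0% were called higher and 24.9% lower. The Rubisco small subunit genes RBCS1B (AT5G38430) and RBCS2B (AT5G38420) were at 504 against 1022 and 1801 against 3629 FPKM in the authors' deposited table (q = 0.000329 for each). In chromatin-bound RNA limma called 0 of the 6, and 0 had an unadjusted p under 0.05.

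Markers of other tissues differed between the genotypes as well. The 8 seed genes summed to 4.32 and 1.35 FPKM in wild-type and 69.0 and 95.5 in mutant chromatin-bound replicates. The storage protein genes CRA1 and CRC and the oleosin genes OLEO1 and OLEO2 were called higher, beside 13.2% of all genes. These were the 4 seed genes that passed the filter on low values, and SESA1, SESA2, SESA3 and SESA4 were not tested. In mRNA they summed to 10.6 against 597 FPKM in the authors' deposited table, with 5 called higher, beside 17.1% of all genes. The 6 root genes summed to 12.5 and 9.65 against 20.3 and 23.9 FPKM in chromatin-bound RNA. Of the 5 tested, IRT1 was called higher and PRP3 lower, beside 13.2% and 4.24% of all genes. The rise of this sum came from IRT1, at 0.243 and 0 against 9.83 and 14.7 FPKM. In mRNA the 6 summed to 199 against 83.4 in the authors' deposited table, with 5 called lower, beside 17.9% of all genes. Of 3 senescence genes SAG12 was listed at 0 in every column, and the 3 summed to 57.9 and 96.5 against 11.6 and 10.5 FPKM in chromatin-bound RNA and to 11.96 against 18.6 in mRNA by the authors' deposited table. SAG13, at 47.8 and 86.7 against 0.619 and 0.735 FPKM, was called lower in chromatin-bound RNA, beside 4.24% of all genes. It carried the fall of that sum. Their part in the changes of the photosystem genes was not tested.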

How the data were processed

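Chromatin-bound values are FPKM that the authors deposited in 1 table per genotype, so each column is relative to its own total. The labels give 2 libraries per replicate number, combined at or before the tables. The mRNA values in the authors' deposited table are taken as FPKM, 1 per genotype, since the file does not name the unit; its q-values are adjusted p-values per the file headers. The submitters' processing notes name TAIR10, Cuffdiff 2.2.1, Cufflinks, TopHat2 2.1.1, HISAT2 2.0.5 and StringTie 1.3.4d, without saying which step each served. The 1 further column of per-sample values, a copy of mutant replicate 2, was not used. The 5 RZ-1C and 1 GFP iCLIP libraries were not analysed here.

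log2(FPKM + 1) values of the 19694 genes averaging 1 FPKM or more were compared between 2 wild-type and 2 mutant columns in limma 3.58.1 (R 4.3.3), with the prior variance following the mean level. P-values were adjusted by Benjamini-Hochberg over these genes, and calls have an adjusted p under 0.05. It was tested on simulated data. mRNA calls are the authors' q under 0.05, with log2 ratios recomputed from the deposited values. Depth is known only relative to another column, from the most frequent ratio of low values, at which 2.5% to 6.94% of such genes lay. Fold changes on log2(FPKM + 1) understate those of low genes. Names and neighbours were read from RefSeq (TAIR10.1), where all 36 members matched. Coordinates are not printed. The members, lists, tests and the rule for named genes (members in full where called or at the ends of their class, of each list the called genes up to 4 by size of change, and the targeted genes) were chosen with earlier results of these data known. No sequence is printed. In chromatin-bound RNA the genotypes stand in separate tables, so those levels are set across tables. The mRNA values of both genotypes stand in 1 table.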

Additional observations from a re-analysis of the deposited data

Results flagged for a closer look

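LHCB4.3, LHCA1, LHCA4 and LHCB1.5 were flagged because their chromatin-bound RNA and their mRNA lay on opposite sides. In each of them both mutant chromatin-bound replicates were on one side of both wild-type replicates in the values as deposited, the log2 change kept its sign under each scaling tried, and the authors' deposited table calls the mRNA on the other side. The chromatin-bound log2 change was -1.13 for LHCB4.3, 0.59 for LHCA1, 0.45 for LHCA4 and 0.55 for LHCB1.5. The mRNA log2 ratios from the authors' deposited table were 1.15, -0.62, -0.80 and -0.88 for the same genes. Of the chromatin-bound changes limma called that of LHCB4.3 (adjusted p = 0.0260), and the other 3 had adjusted p between 0.0645 and 0.179. After median-of-ratios rescaling limma adjusted p was 0.197 for LHCA1, 0.556 for LHCA4 and 0.28 for LHCB1.5. Relative to the median of all genes their log2 changes were 0.33, 0.18 and 0.29. Of all genes tested, 49.5% had both mutant replicates above both wild-type replicates and 15.7% had both below. In mRNA 17.9% of genes with at least 1 FPKM were called lower and 17.1% higher in the authors' deposited table. The share of all genes that meet these conditions together is not given here, so the 4 are not shown to be unusual. The difference between the kinds of RNA was not tested for any of the 4, and for LHCB1.5 the split of reads between LHCB1 copies is uncertain.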

How the results depend on the processing

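In chromatin-bound RNA the 3430 calls over all genes became 1931 with no filter on low values, and between 227 and 4988 with a replicate left out, the lowest without mutant replicate 2. Median-of-ratios rescaling and quantile normalization took the share of higher calls from 75.7% to 46.3% and 48.4%, and without mutant replicates 1 and 2 it was 57.8% and 49.8%. The 6 member calls became 0 with no filter, where 16 had an unadjusted p under 0.05, 12 after median-of-ratios rescaling, 13 after quantile normalization and between 0 and 5 with a replicate left out. With the replicate number as a block they were 10, and 4520 over all genes; the replicate differences of the genotypes correlated with r = 0.0142 across genes, so the numbers are not taken to pair the samples. Log2 changes turned sign in LHCA3 (-0.0080), LHCB1.3 (-0.18), LHCB1.4 (-0.10), LHCB6 (-0.16) and PSAF (-0.033) after median-of-ratios rescaling, and in LHCB1.3 (-0.99) and LHCB6 (-0.040) after quantile normalization. With a replicate left out the values had both signs in LHCB1.3 (-0.18 to 0.39), LHCB4.1 (-0.15 to 0.15), LHCB4.2 (-0.16 to 0.14), LHCB6 (-0.12 to 0.36), PSAH2 (-0.52 to 0.16) and PSAL (-0.46 to 0.016). Of these only LHCB1.3 after quantile normalization was called; the cause was not tested. The 23 mRNA calls were 20 at a q threshold of 0.01 and 16 with at least 1.5-fold, beside 25.1% and 25.5% of all genes with at least 1 FPKM, and dividing by the median ratio left 21 lower and 2 higher. Members called in both kinds of RNA went from 3 to 8 after median-of-ratios rescaling. The mutant share minus the wild-type share, in percentage points, was -2.62 for PSAD2, 0.925 for PSBQ2 and 2.60 for LHCB2.2 and ran with a replicate left out from -7.55 to 2.32, -1.98 to 3.83 and -0.716 to 5.91, so its sign is not settled. Sign reversals came without mutant replicate 2 in PSAD2 (2.32), without wild-type replicate 2 (-1.98) and mutant replicate 2 (-0.931) in PSBQ2, and without mutant replicate 1 in LHCB2.2 (-0.716). It kept its sign in these fits for PSBO2 (-4.58 to -2.06), LHCB4.3 (-1.25 to -1.01) and LHCB1.3 (-9.12 to -3.52). Spearman's rho between the kinds of RNA ran from 0.587 to 0.638 in the wild type and 0.785 to 0.794 in the mutant. With 2 replicates per genotype and wild-type columns of lower depth, smaller changes can be missed.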

Other observations

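Light-stress relatives and light regulators of these genes were read from lists of 6 and 17 genes. The early light-induced proteins, relatives of the antenna that bind pigment under stress, were the calls among the 6. In chromatin-bound RNA 1 of the 6 was called higher, beside 13.2% of all genes. In mRNA 2 of the 6 were called higher in the authors' deposited table, beside 17.1% of genes with at least 1 FPKM. Counts this small say nothing particular about the list. ELIP1 (AT3G22840) rose in chromatin-bound RNA, from 3.77 and 3.57 FPKM in the wild type to 11.98 and 12.1 in the mutant (limma adjusted p = 0.00486), and was called higher after median-of-ratios rescaling too. ELIP1 and ELIP2 (AT4G14690) also rose in mRNA, from 8.57 to 49.0 and from 2.54 to 30.4 FPKM in the authors' deposited table (q = 0.000329 for each). Chromatin-bound ELIP2 was at 3.28 and 2.87 against 4.75 and 6.501 (limma adjusted p = 0.0865).

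Of the 17 light and plastid regulators, 5 were called higher and 0 lower in chromatin-bound RNA, beside 13.2% and 4.24% of all genes. After median-of-ratios rescaling 3 were called higher, beside 6.75% of all genes. The 5 were PHYB, a photoreceptor, and 4 phytochrome-interacting factors, transcription factors that repress light responses in the dark. PIF4 (AT2G43010) is listed at 0 for each wild-type replicate, and the table holds no read counts behind these zeros on which its call rests. It had 8.90 and 5.84 FPKM in the mutant ones. PIF5 (AT3G59060) was at 13.5 and 20.7 against 54.1 and 48.6 (limma adjusted p = 0.00658). PIF1 (AT2G20180) and PIF3 (AT1G09530) were at 10.6 and 11.8 against 25.5 and 22.4 FPKM (limma adjusted p = 0.0123) and 8.92 and 9.13 against 20.01 and 15.7 (limma adjusted p = 0.0238). In mRNA PIF4 and PIF5 fell, from 98.6 to 64.1 and from 116 to 76.4 FPKM in the authors' deposited table (q = 0.000329 for each). PIF1 and PHYB rose, from 20.4 to 32.7 (q = 0.000329) and from 18.4 to 25.1 FPKM (q = 0.00601) in the authors' deposited table. PIF3 did not pass, at 23.9 against 28.4 in the authors' deposited table (q = 0.178). GLK1 (AT2G20570), an activator of antenna genes, rose in mRNA from 63.2 to 122.7 FPKM in the authors' deposited table (q = 0.000329), and its chromatin-bound values were 21.0 and 16.6 against 18.6 and 17.98 (limma adjusted p = 0.930). GNL (AT4G26150) and GNC (AT5G56860), GATA factors that promote greening, also rose, from 1.99 to 9.25 and from 14.0 to 32.8 FPKM, and SIG5 (AT5G24120), a sigma factor of the plastid polymerase, fell from 21.7 to 9.75 in the authors' deposited table (q = 0.000329 for each). In mRNA 5 of the 17 were called higher and 4 lower in the authors' deposited table. Of all genes with at least 1 FPKM there, 17.1% were called higher and 17.9% lower.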
